A study of Mus musculus with 12 samples.

Results

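The peaks described here are the R-loop peaks of mouse liver that were deposited without a strand on chromosomes 1 to 14 and 16 to 19. They were selected by the strand field of the liver peak list, where a dot stands in place of plus or minus. There were 1285 of them among 12052 liver peaks on these chromosomes (10.7%, 95% Wilson interval 10.1 to 11.2%), and among 14908 peaks in the whole liver list. The other 10767 peaks of the same chromosomes carried a strand and served as the comparison. A further 501 strandless liver peaks lay on chromosome 15, 430 on X and 18 on Y, and are outside the set.

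An R-loop is a hybrid of RNA with its DNA template in which the opposite DNA strand is displaced, and it often forms behind a transcribing polymerase. The antibody S9.6 binds RNA-DNA hybrids, and RNase H1 removes the RNA of such hybrids. R-loops are best known at promoters and gene ends, and have also been described at repeated DNA such as telomeres, centromeres and ribosomal RNA genes.

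Per the labels, the liver came from untreated wild-type C57/Bl6 mice, whose age and sex are not given in the sources used here, with hepatocyte as the stated cell type. HEPA1-6, an untreated mouse hepatoma cell line grown in culture, was the second source. Each source had 2 immunoprecipitates, 2 immunoprecipitates treated with RNase H1 and 2 inputs. Only 1 pooled peak list per source was used, so no difference has a replicate check, no p-value is given, the depth is unknown, and all intervals are 95% intervals that cover counting error over peaks. Neighbouring peaks are not independent. Single libraries and the RNase H1 treatment were not analysed here, so whether a strandless peak was sensitive to RNase H1 is unknown.

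Markers were laid over the whole liver list, with 1 kb on both sides of each gene. All 5 proliferation genes held a peak (Mki67, Top2a, Cdk1, Plk1 and Ccnb1), against 3 of 10 hepatocyte genes (Alb, Trf and Fah). A peak was found at 0 of 4 Kupffer cell, 0 of 4 endothelial and 0 of 4 stellate cell genes, and at 1 of 4 cholangiocyte genes (Sox9). By the same rule 16.7% of all genes in the RefSeq table and 29.6% of its protein-coding genes held a peak, so the share of hepatocyte genes was near the background. None of the marker peaks was strandless. A peak is no measure of expression, and the list is called liver here after its label.

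Few of the strandless peaks lay at a promoter. The sequences of 3 such promoters are printed below as examples, and they do not stand for the whole set. RefSeq promoter windows of assembly GRCm38.p6, which run from 250 bases before to 50 after a gene's start, lay under 9 of the 1285 strandless peaks (0.700%, 0.369 to 1.33%). They lay under 2107 of 10767 stranded peaks (19.6%, 18.8 to 20.3%). The 9 strandless peaks covered 13 windows of 11 genes at 6 loci, and every one of these genes is a predicted gene.

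The first window belongs to Gm40237, a predicted lncRNA gene, and lies wholly under the second highest-scoring strandless peak. Capitals mark 5 copies of a unit of 40 bases that recurs every 44 bases. The other 2 windows belong to Gm40367, a predicted protein-coding gene in the repeat region of the 4.5S RNA gene Rn4.5s, and to Gm51701, a predicted lncRNA beside the chemokine receptor gene Ccr1. In both, capitals mark runs of 4 or more G or C. All are given 5′ to 3′ on the plus strand of GRCm38.p6, from RefSeq.
Gm40237, chr4:118547156-118547455: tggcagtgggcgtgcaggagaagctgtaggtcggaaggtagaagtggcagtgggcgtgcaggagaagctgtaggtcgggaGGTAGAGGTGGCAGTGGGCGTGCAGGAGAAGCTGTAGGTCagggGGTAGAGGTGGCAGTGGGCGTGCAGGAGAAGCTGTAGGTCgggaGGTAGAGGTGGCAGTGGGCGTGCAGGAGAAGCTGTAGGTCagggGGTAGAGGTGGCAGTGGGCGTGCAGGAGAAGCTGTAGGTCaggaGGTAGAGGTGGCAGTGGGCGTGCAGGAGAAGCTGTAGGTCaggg
Gm40367, chr6:47662342-47662641: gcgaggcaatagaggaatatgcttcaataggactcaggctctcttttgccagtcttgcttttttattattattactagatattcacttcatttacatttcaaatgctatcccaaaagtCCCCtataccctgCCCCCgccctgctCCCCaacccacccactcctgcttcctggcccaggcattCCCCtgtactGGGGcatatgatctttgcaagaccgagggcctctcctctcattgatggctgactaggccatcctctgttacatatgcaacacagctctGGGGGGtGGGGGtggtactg
Gm51701, chr9:123924898-123925197: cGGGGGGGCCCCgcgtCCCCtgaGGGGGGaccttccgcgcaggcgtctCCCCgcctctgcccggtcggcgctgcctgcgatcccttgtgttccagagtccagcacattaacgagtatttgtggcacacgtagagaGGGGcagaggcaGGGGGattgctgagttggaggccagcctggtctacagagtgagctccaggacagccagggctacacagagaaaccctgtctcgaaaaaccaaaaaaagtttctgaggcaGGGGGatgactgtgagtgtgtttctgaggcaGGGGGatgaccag

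The unit in the Gm40237 window was found in 2 of 30460 promoter windows on these chromosomes, both of them windows of Gm40237, searching both strands. That window had a GC content of 62.7% and a GC skew of 0.628, where skew is the excess of G over C as a share of both. The median skew over all windows was 0.013. At the Rn4.5s region, the 300 bases of the Gm40367 window were identical to those of windows of Gm40369, Gm36327 and Gm40364, and occurred in no other window of the table. A window of Gm52861 in the same region matched them at 297 of 300 aligned bases. A read that lies wholly within such an identical stretch does not show which copy it came from.

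Over the 13 windows under strandless peaks the median GC content was 50.3%, against 53.0% for all windows and 63.7% for the 3046 windows under stranded peaks. The 13 windows lie at 6 loci and are not independent. Of them, 4 are the same 300 bases, each with a GC content of 50.3%. The medians and shares over the 13 therefore count this sequence repeatedly. The window of Gm52862 was overlapped by its peak at 1 base only. The dinucleotide CG occurred at a median of 6 times per window, 7 times in all windows and 24 times in those under stranded peaks. The motif GGGG on either strand was present in 11 of the 13 (84.6%), in 86.8% of all windows and in 97.0% of those under stranded peaks. All 13 windows belonged to genes on the plus strand, although 7 of them share the Rn4.5s region. Under stranded peaks, 1579 windows were of plus-strand and 1467 of minus-strand genes.

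The classes differed widely in their distance to genes. Whether strands were taken from nearby genes was not tested, so this distance cannot be read as independent of the classes. RefSeq genes of GRCm38 overlapped 150 strandless peaks (11.7%, 10.0 to 13.5%) and 9809 stranded peaks (91.1%, 90.5 to 91.6%). Outside genes, the median distance to the nearest gene was 19.2 kb for the 1135 strandless peaks (interval 16.9 to 21.1 kb) and 0.947 kb for the 958 stranded ones (0.855 to 1.05 kb). Over 50 kb from any gene lay 308 strandless peaks (24.0%) and 16 stranded peaks (0.149%). Over 100 kb lay 148 and 9, respectively.

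The change from stranded to strandless was abrupt at 3 kb. Within genes 1.51% of liver peaks had no strand, and at 2 to 3 kb from a gene 17 of 108 (15.7%, 10.1 to 23.8%). At 3 to 4 kb the share was 76 of 107 (71.0%, 61.8 to 78.8%). From there it climbed slowly, to 82.5% at 8 to 10 kb and 95.8% at 50 to 100 kb. Where stranded peaks covered promoter windows of 1 strand only, 1372 of 1661 (82.6%, 80.7 to 84.3%) had the strand of that gene. How the authors gave a strand to a peak is not given in the sources used here, and a missing strand does not tell which DNA strand held the RNA.

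**Figure D1:**
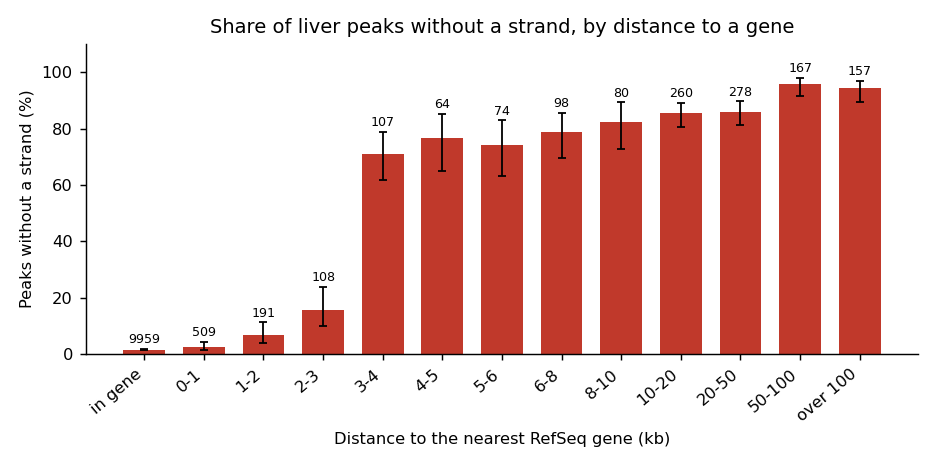
Bars give the percentage of liver peaks without a strand in classes of distance (kb) to the nearest RefSeq gene, on chromosomes 1 to 14 and 16 to 19. Error bars are 95% Wilson intervals and the numbers above them are all peaks in the class. The share rises from 15.7% at 2 to 3 kb to 71.0% at 3 to 4 kb.

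The gene-free intervals that held strandless peaks were long. Their median length was 88.4 kb (77.5 to 97.3 kb), compared with 14 kb (12.8 to 15.7 kb) for stranded peaks outside genes. The most remote peak lay 559.5 kb from any gene, on chromosome 14 (91759667 to 91759943, score 16), in a gene-free interval of 1168 kb. The next 4 were on chromosome 6, nearest to the lncRNA gene AA545190 (451 kb, score 15), on chromosome 5 (383 kb, score 19), on chromosome 1 (382 kb, score 17) and on chromosome 6, nearest to Nxph1, the gene of the secreted protein neurexophilin (365 kb, score 33). None of these 5 overlapped a HEPA1-6 peak by at least 1 bp. Such an overlap was found for 14.9% of strandless peaks over 50 kb from any gene. It was found for 22.5% of all strandless peaks and 81.8% of all liver peaks of these chromosomes.

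Pseudogenes and lncRNA genes were more often nearest to strandless than to stranded peaks outside genes. Among strandless peaks outside genes, the nearest gene was a pseudogene for 370 (32.6%), protein-coding for 391 (34.4%) and an lncRNA for 267 (23.5%). For stranded peaks outside genes these shares were 10.3%, 75.5% and 7.62%. The shares of these kinds among all genes are not given here. Predicted genes with a Gm symbol were nearest to 733 strandless peaks (57.0%) and to 5.48% of stranded peaks, and make up 42.7% of the 45267 genes in the table for these chromosomes.

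The 150 strandless peaks inside genes were mostly in predicted transcripts. Of them, 112 (74.7%, 67.2 to 81.0%) overlapped only genes with a Gm, LOC or Rik symbol, compared with 4.57% of stranded peaks in genes. Genes with such a symbol are 49.5% of all genes on these chromosomes. The gene overlapped most was an lncRNA for 84 and protein-coding for 29. The highest score was that of the Gm40237 peak, and the rest of the 10 highest ran from 168 at the pseudogene Gm20590 on chromosome 13 to 73 in the Rn4.5s region. They included narrow peaks in predicted lncRNA genes: Gm34745 on chromosome 12 (275 bp, score 118), Gm34917 on chromosome 17 (264 bp, score 109) and Gm36544 on chromosome 2 (334 bp, score 98). Each of these 3 overlapped a strandless HEPA1-6 peak. The Gm51701 peak (1706 bp, score 118), whose promoter is printed above, overlapped none.

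Olfactory and vomeronasal receptor genes, which code for odour and pheromone receptors of sensory neurons and lie in large clusters of similar copies, were the nearest genes of several strandless peaks. Vomeronasal genes and pseudogenes (Vmn) were nearest to 52 (4.05%, 3.10 to 5.27%) and to 23 stranded peaks (0.214%). They are 1.38% of all genes. Chromosome 7 held 32 of the 52. Olfactory receptor genes (Olfr) were nearest to 27 strandless peaks (2.10%) and 11 stranded peaks (0.102%), and are 3.11% of all genes. A HEPA1-6 peak was overlapped by 5 of the 52 peaks beside Vmn genes (9.62%, 4.18 to 20.6%) and by 5 of the 27 beside Olfr genes (18.5%, 8.18 to 36.7%), against 22.5% of all strandless peaks. Scores ranged from 10 to 242 (median 18) beside Vmn genes and from 13 to 633 (median 17) beside Olfr genes.

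Zinc finger genes (Zfp), which code for DNA-binding proteins, were nearest to 9 strandless peaks (0.700%) and 209 stranded peaks (1.94%). They are 0.873% of all genes. MicroRNA genes (Mir) were nearest to 9 (0.700%) and 29 (0.269%), both below their share of 2.31% of all genes. A cadherin gene (Cdh) was nearest to 1 peak of each class, and such genes are 0.0398% of all genes. Protocadherin and small nucleolar RNA genes were nearest to 0 strandless peaks, and to 8 and 2 stranded peaks. A count of 0 allows a share of up to 0.298% for each (Wilson). Their shares of all genes, 0.150% and 0.274%, lie within that limit.

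Strandless peaks were narrower than stranded peaks as a whole. The median width was 569 bp (543 to 613 bp, middle 50% of peaks 304 to 872 bp), against 941 bp (924 to 958 bp) for all stranded peaks and 598 bp (551 to 661 bp) for the 958 stranded peaks outside genes. The interval for strandless peaks overlapped that for stranded peaks outside genes. Peaks of 300 bp or less made up 24.2% of strandless and 14.2% of stranded peaks. Strandless peaks over 50 kb from a gene had a median width of 446 bp (404 to 554 bp).

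The widest strandless peaks were exceptions. Of the 5 widest, 4 lay in the Rn4.5s region (17513, 17320, 16602 and 11076 bp). The remaining one was 11229 bp wide and overlapped the predicted lncRNA gene Gm36090 on chromosome 2 (164523072 to 164534300, score 88). It lay beside Pigt, which codes for a subunit of the enzyme that attaches GPI anchors. Outside genes no strandless peak exceeded 5477 bp.

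Scores were low at the centre and high in the tail. The score is the authors' own value per peak, on a scale that is not stated, and was compared only within the liver list. Strandless peaks had a median score of 19 (18 to 19), stranded peaks 22 (22 to 22) and stranded peaks outside genes 21 (20 to 21). Among liver peaks with a score of at least 50, 12.1% were strandless (130 of 1071). This share was 21.1% at 100 or more (53 of 251), 45.2% at 500 or more (19 of 42) and 50% at 1000 or more (11 of 22, interval 30.7 to 69.3%).

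**Figure D2:**
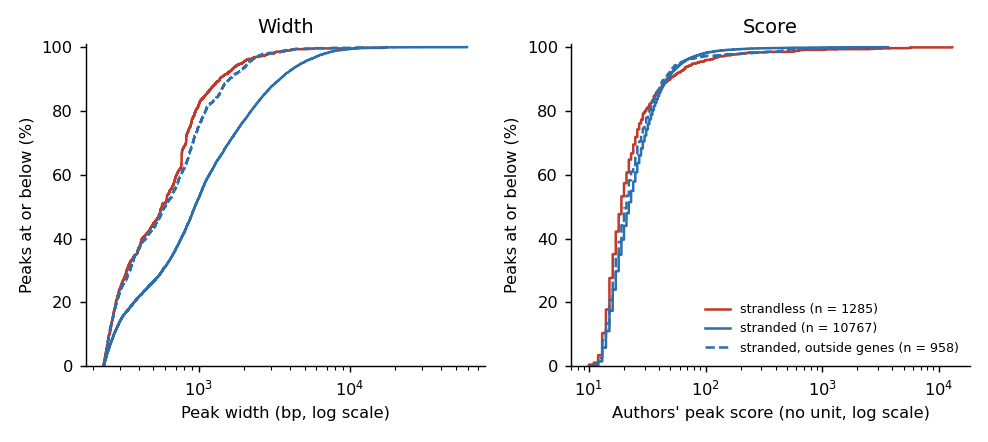
Curves give the percentage of liver peaks at or below each width (bp, left) and each score of the authors (no unit, right), both on log axes, for 1285 strandless peaks, 10767 stranded peaks and the 958 stranded peaks outside genes. The strandless width curve runs close to that of stranded peaks outside genes (medians 569 and 598 bp), and the strandless score curve crosses the others in its upper part, where it reaches 13071.

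Most of the strandless peaks with a score of 1000 or more were the last peak of a chromosome. Mouse chromosomes have the centromere near their start in the assembly and the other telomere at their end. Along the 18 chromosomes, the last liver peak was strandless in 12, with scores from 18 to 13071 and a median of 1196. Of these 12, 10 scored over 500, 8 scored over 1000 and 10 overlapped a HEPA1-6 peak. On the other 6 chromosomes the last peak carried a strand and scored from 19 to 1070 with a median of 520. In both classes the median of the last peaks stood above that of the class (19 strandless, 22 stranded). The lowest last peak of each class lay below it. The first peak was strandless in 8 of the 18 chromosomes, with scores from 15 to 242 and a median of 60.5, and 4 of the 8 overlapped a HEPA1-6 peak. The 10 first peaks with a strand scored from 15 to 790 with a median of 35.5. The 1265 strandless peaks that were neither first nor last had a median score of 19, and 3 of them reached 1000, against 11 in the whole set.

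The last peak of chromosome 14 had the highest score of all (13071, 124801576 to 124802204, 629 bp) and lay 124 kb beyond Fgf14, the gene of a fibroblast growth factor family protein of neurons. The last peaks of chromosome 12 (120028686 to 120029005, 5671, beyond Tmem196) and chromosome 18 (90601696 to 90602608, 3753, beyond Gm45871) were among the 5 highest. So were 2 peaks inside chromosomes. One was the Gm40237 peak on chromosome 4 (118547063 to 118548728, 1666 bp, 5799). The other, on chromosome 12 (97061434 to 97061789, 356 bp, 5570), lay 138 kb from the pseudogene Gm6863 and 1653 kb from the nearest other peak. Each of these 5 peaks overlapped a HEPA1-6 peak that was strandless as well. The last peaks of chromosomes 2 (2820), 7 (2564, beyond Mrgprd, the gene of a receptor of sensory neurons), 19 (1329), 9 (1064) and 16 (1026) followed, while those of chromosomes 1 and 17 scored only 18 and 209 and overlapped no HEPA1-6 peak.

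Peaks without a strand stood far from other peaks, and their nearest peak was often strandless too. The median gap to the nearest liver peak of any class was 85.4 kb (73.6 to 106 kb) for strandless and 4.5 kb (4.26 to 4.72 kb) for stranded peaks. For stranded peaks outside genes it was 6.36 kb (5.18 to 7.86 kb). The nearest peak was itself strandless for 690 strandless peaks (53.7%, 51.0 to 56.4%) and for 377 stranded peaks (3.5%, 3.17 to 3.87%), while 10.7% of all peaks were strandless. The 10.7% covers peaks in genes too, whereas at 3 to 4 kb from a gene 71.0% of liver peaks were strandless. Neighbours at matched gene distance were not compared. Read along the chromosomes, the next peak was strandless after 602 of 1273 strandless peaks (47.3%) and after 675 of 10761 stranded peaks (6.27%).

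Successive strandless peaks were 718 kb apart at the median (594 to 814 kb), with 25% of gaps under 123 kb and the shortest at 0.953 kb. Strandless peaks with gaps of at most 100 kb between them were joined into runs. Stranded peaks in between were ignored and did not end a run. No other strandless peak lay within that gap for 822 peaks, though a stranded one may have. Of the runs, 113 held 2 peaks, 36 held 3 or 4, and 14 clusters held at least 5. The 14 clusters contained 120 peaks (9.34% of the set), and runs of 2 or more contained 463 (36%). Chromosome 6 had 5 of the 14 clusters. The number of clusters depended on the joining gap, with 7 at 50 kb and 21 at 250 kb, and on the weaker peaks, since 3 remained when only peaks with a score of 22 or more were used.

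The largest cluster held 27 strandless peaks over 137 kb of chromosome 6 (114499267 to 114636745), between Hrh1, the gene of the histamine H1 receptor, and Atg7, the gene of an enzyme needed for autophagosome formation. No RefSeq gene lay within it and no stranded peak stood between its members. Peaks covered 26% of its length, with widths from 244 to 4166 bp (median 1048 bp), scores from 17 to 184 (median 29) and a median gap of 3.09 kb. The highest score belonged to a narrow peak of 283 bp that began 52.6 kb from its start, and the widest peak opened the cluster on the Hrh1 side. In HEPA1-6 the same interval held 10 peaks, all strandless, with scores up to 56, and 9 of the 27 liver peaks overlapped one. Liver peaks covered 35716 bases of the interval and HEPA1-6 peaks 9367, and both lists had peaks with a strand again inside Atg7.

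The Rn4.5s region on chromosome 6 (47651644 to 47778253) had the densest coverage. Rn4.5s codes for a small RNA of rodents. The cluster had only 6 strandless peaks, but they filled 55.9% of 127 kb, with widths from 2848 to 17513 bp and scores from 66 to 143 (median 85.5). All 6 overlapped HEPA1-6 peaks, of which there were 16 in the interval, all strandless, covering 58909 bases against 70836 in liver. A stretch of 50.1 kb without a liver peak, inside the predicted gene Gm40363, divided the cluster into 2 blocks. The identical promoter windows lay in the first block, at steps of 8600, 12990 and 4325 bp. The end of the cluster was next to Rny3, which codes for a Y RNA.

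**Figure D3:**
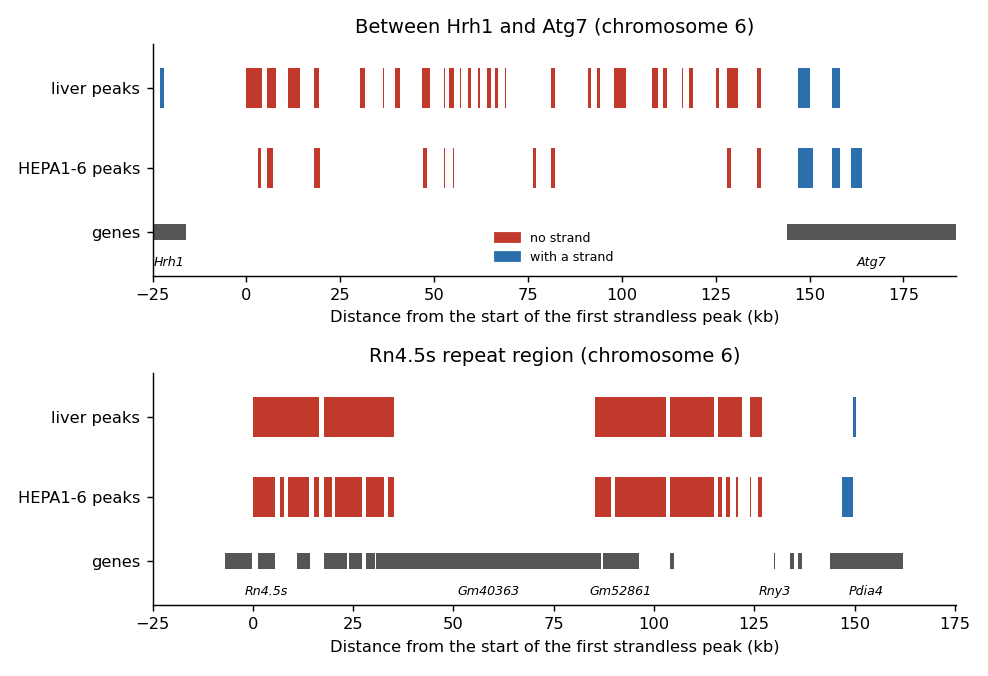
Peaks of the liver and HEPA1-6 lists and RefSeq genes (grey) are drawn to scale along the region between Hrh1 and Atg7 (top) and the Rn4.5s region (bottom), in kb from the start of the first strandless liver peak. Red peaks have no strand and blue peaks have one. The top cluster has 27 strandless liver peaks and 10 HEPA1-6 peaks, and the bottom one 6 wide liver peaks and 16 HEPA1-6 peaks.

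Several clusters lay among families of similar genes or predicted genes. On chromosome 7, 10 strandless peaks (9961936 to 10070915, scores 13 to 72) stood among Vmn2r49, Vmn2r50 and the pseudogene Gm3702, and another 10 (15157752 to 15357505, scores 13 to 20) among pseudogenes of the oocyte homeobox family Obox. No peak of either cluster overlapped a HEPA1-6 peak. On chromosome 8, clusters of 8 and 7 peaks among predicted genes had 1 overlapping peak each. Further clusters with 0 overlapping peaks were 7 on chromosome 13 (66020791 to 66236808) among mostly predicted genes, 6 on chromosome 5 (145517262 to 145676610) around the cytochrome P450 gene Cyp3a41b and 2 Cyp3a pseudogenes, and 5 each at Vmn1r41 and at Gm21940 on chromosome 6. In all, 6 of the 14 clusters had no member that overlapped HEPA1-6. Over all 14, 34 of the 120 clustered peaks did (28.3%, 21 to 37%), an interval that includes the 22.5% of all strandless peaks.

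Most members of 3 further clusters overlapped HEPA1-6 peaks. On chromosome 11 (95080493 to 95164066), there were 8 strandless peaks with scores from 16 to 34. Of them, 7 lay between the integrin gene Itga3 and the homeobox gene Dlx3, and these 7 overlapped. The last peak lay beyond the homeobox genes Dlx3 and Dlx4, 4245 bp from Dlx4os, and did not overlap. HEPA1-6 had 8 peaks there, of which 3 were strandless. The 7 peaks of chromosome 2 (159550319 to 159674528, scores 15 to 38) lay in a gene-free stretch where 5 overlapped HEPA1-6 peaks. On chromosome 6 (141880988 to 141954376), 4 of 5 peaks lay inside the predicted gene Gm30843, with scores from 22 to 51, and all 4 overlapped HEPA1-6 peaks. The last one (score 21) was nearest to Slco1a1, the gene of an organic anion transporter, at 6853 bp, and overlapped none. The cluster of chromosome 1 (83103096 to 83226177) differed from these: its 9 strandless peaks lay among 14 stranded ones around the chemokine gene Ccl20 and the dynein assembly gene Daw1, with scores from 13 to 26. HEPA1-6 had 1 peak there, strandless, with a score of 10. Stranded peaks also stood within some of the other clusters, at most 7 of them, in the Obox cluster of chromosome 7.

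Chromosomes differed in their number of strandless peaks. Chromosome 6 held most, with 178 (1.19 per Mb), and chromosome 16 had the lowest density (28 peaks, 0.285 per Mb), a range of 4.17 times. The density of stranded peaks varied more, from 1.11 to 9.93 per Mb (8.98 times). The share without a strand ran from 4.26% on chromosome 11 (53 of its peaks, 3.27 to 5.53%) to 22.5% on chromosome 14 (40 peaks, 17 to 29.1%), and these were also among the chromosomes richest and poorest in stranded peaks (9.77 and 1.11 per Mb). Without chromosome 6, the median width, score, gene distance and gap of the strandless peaks, and their shares in genes, beside another strandless peak and overlapping HEPA1-6, stayed within their intervals. The median gap to the nearest peak came close to its upper limit, at 105 kb against 85.4 kb with chromosome 6. Clusters were not counted again without chromosome 6.

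**Figure D4:**
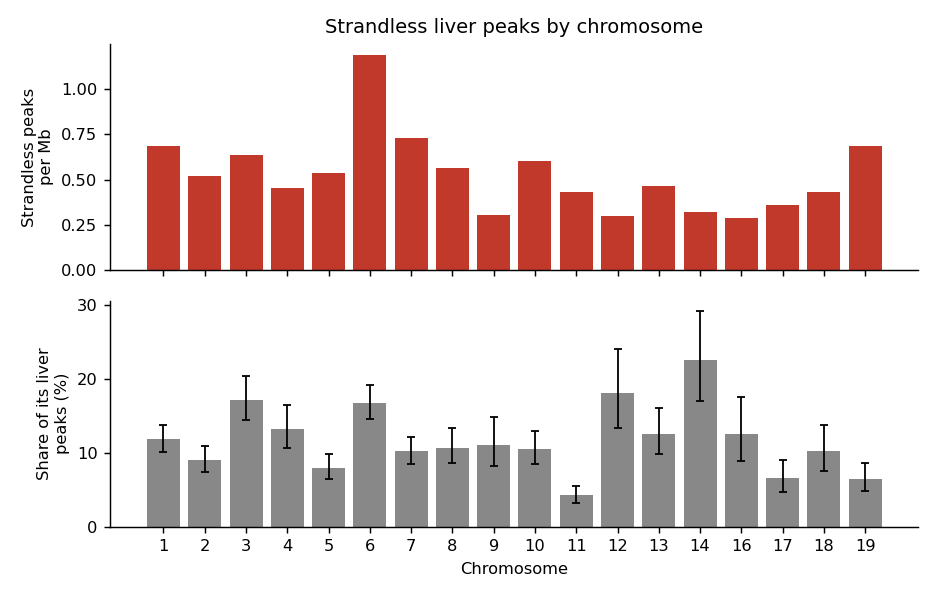
The upper bars give strandless liver peaks per Mb for each of the 18 chromosomes, and the lower bars their share of all liver peaks of that chromosome with 95% Wilson intervals. Chromosome 6 has the highest density (1.19 per Mb) and chromosome 14 the highest share (22.5%).

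The HEPA1-6 list is the readout that the choice of peaks did not use. Of all 12052 liver peaks on these chromosomes 81.8% overlapped a HEPA1-6 peak by at least 1 bp. Among strandless peaks this was 289 of 1285 (22.5%, 20.3 to 24.9%), and among stranded peaks 9569 of 10767 (88.9%, 88.3 to 89.5%). The difference remained outside genes, where 20.6% of strandless (18.4 to 23.1%) and 72.3% of stranded peaks (69.4 to 75.1%) overlapped. When an overlap had to cover 50% of both peaks, it was found for 11.8% of all strandless and 30.3% of all stranded peaks.

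Overlap was lower far from genes than near them in both classes. Between peaks in genes and peaks within 5 kb of one, the strandless shares had overlapping intervals, while the stranded share fell. In genes it was 36.7% of strandless (29.4 to 44.6%) and 90.5% of stranded peaks, within 5 kb of a gene 39.9% (32.8 to 47.4%) and 78.3%, and at 5 to 50 kb 18.4% and 42.0%. Over 50 kb from any gene it was 46 of 308 strandless peaks (14.9%, 11.4 to 19.3%) and 3 of 16 stranded peaks (18.8%, 6.59 to 43.0%), with overlapping intervals. At these distances the intervals of the medians overlapped too, with widths of 446 bp (404 to 554 bp) and 338 bp (251 to 768 bp) and scores of 19 (18 to 20) and 21.5 (17 to 29).

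**Figure D5:**
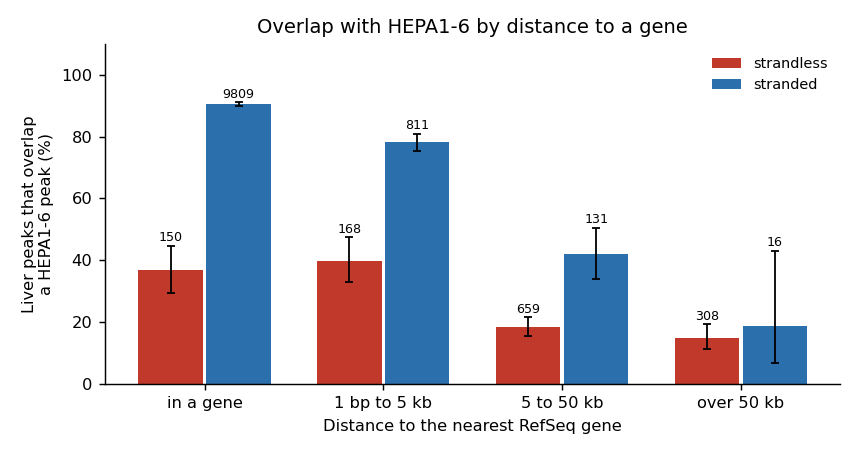
Bars give the percentage of liver peaks that overlap a HEPA1-6 peak by at least 1 bp, for strandless (red) and stranded (blue) peaks in 4 classes of distance to the nearest gene. Error bars are 95% Wilson intervals and numbers are peaks per class. The classes differ by 36.7% against 90.5% in genes, and their intervals overlap beyond 50 kb.

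Overlap also varied with the score. Below a score of 20, 91 of 684 strandless peaks (13.3%, 11.0 to 16.1%) overlapped HEPA1-6, compared with 83.7% of stranded peaks. At 100 or more this was 34 of 53 (64.2%, 50.7 to 75.7%) and 94.4%, and at 1000 or more 11 of 11 (100%, 74.1 to 100%) and 9 of 11. The 289 strandless peaks with an overlap had a median score of 26 (24 to 28) and a median width of 768 bp (629 to 860 bp). The 996 without had 18 (17 to 18) and 546 bp (500 to 570 bp). Whether width or score sets the overlap was not tested. Outside genes, the overlapping peaks were nearer to genes, at a median of 9.48 kb (7.97 to 11.3 kb) against 22.2 kb (19.9 to 24.8 kb).

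Where a strandless liver peak overlapped a HEPA1-6 peak, the strand was usually missing in both. Overlapping peaks also share their place relative to genes, and whether that sets the strand in both lists was not tested. Of the 289 strandless peaks with an overlap, 233 (80.6%, 75.7 to 84.8%) overlapped HEPA1-6 peaks that were strandless too, and 56 (19.4%) overlapped only HEPA1-6 peaks with a strand. In HEPA1-6, 908 of 26263 peaks on these chromosomes were strandless (3.46%, 3.24 to 3.69%), and 237 of the 908 (26.1%, 23.3 to 29.1%) overlapped a liver peak. The depth of both lists is unknown, so a peak found in only one of them may lie under the threshold of the other.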

How the data were processed

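S9.6 immunoprecipitates and inputs of mouse liver and HEPA1-6 cells were sequenced, per the labels' protocols. The submitters' processing notes name CASAVA 1.8.2, cutadapt, Bowtie2, bedtools, SAMtools and MACS2 and the build mm10, with no role or order. The peak names in the deposited lists speak of merged immunoprecipitates compared with input. The authors deposited a score per peak, a whole number of 10 or more on an unstated scale. Thresholds, the libraries merged and the way strands were given are not given in the sources used here.

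From the peaks of both lists, gaps, runs and overlaps (at least 1 bp) were computed edge to edge with Python 3.11.15, numpy 2.4.6, pandas 2.3.3 and scipy 1.17.1, and sequence identity by local alignment with Biopython 1.88. Genes and promoter windows came from RefSeq tables of GRCm38.p6. Coordinates are 1-based. Shares have Wilson intervals and medians exact binomial order-statistic intervals. Functions were tested on simulated intervals.

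The members and lists were chosen with earlier results of these data known. The text names the 5 highest-scoring, 5 widest and 5 most remote strandless peaks, the 5 largest clusters, the 10 highest-scoring in genes and strandless peaks at chromosome ends. Gene families were fixed by symbol prefix. Other clusters, and the widths and genes in the closing section, were named after their values were seen.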

Additional observations from a re-analysis of the deposited data

How the results depend on the processing

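Of 44 alternatives for 16 results, 21 gave a value inside the reported interval, or a count within 1.5 times, and 23 moved. All 14 alternatives that left out chromosome 6 were among the 21. With peaks of score 22 or more, the median width was 507 bp for strandless and 1322 bp for stranded peaks, the median gap to the nearest peak 169 and 10.8 kb, and the overlap with HEPA1-6 35.4% and 92.7%. A strandless nearest peak was then found for 37.8% of strandless peaks, and 92.0% of stranded peaks lay in a gene. The clusters fell to 3, with 33 peaks. With protein-coding genes only, 2.33% of strandless and 87.1% of stranded peaks lay in a gene, and the rest at a median of 58.7 and 1.65 kb, since fewer genes were used. With the midpoint of each peak, 86.1% of stranded peaks lay in a gene, and the rest at 0.781 kb. Stranded peaks outside genes had a median width of 598 bp and a median score of 21. An overlap of 50% of both peaks gave 11.8% and 30.3%. A joining gap of 50 kb gave 7 clusters with 71 peaks, and one of 250 kb gave 21 with 200. Where a setting was run for both classes (score for width, gene distance, gap and overlap, gene set and midpoint for gene distance, 50% for overlap), the order of the classes was the same. Against stranded peaks outside genes the width intervals overlapped. No paired analysis was possible because each source had 1 pooled list, and for the same reason no replicate was left out.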

Other observations

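A few exact widths recurred among the strandless peaks. A width of 768 bp was shared by 34 of the 1285 strandless peaks (2.65%) on 13 chromosomes, and by 11 of 10767 stranded peaks (0.102%). The neighbouring widths of 767 and 769 bp had 5 and 3 strandless peaks. The 34 peaks had scores from 12 to 36 (median 16), lay at a median of 37.6 kb from genes when outside them, stood at a median gap of 256 kb from the nearest other peak, and 1 of them overlapped a HEPA1-6 peak. The next most frequent widths were 825 bp in 14 strandless (1.09%) and 20 stranded peaks (0.186%), 249 bp in 13 (1.01%) and 26 (0.241%), and 613 bp in 12 (0.934%) and 12 (0.111%). No sequence under these peaks was read. These widths were noticed in the data and not sought beforehand.

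Strandless peaks inside protein-coding genes with a given name were few, with 17 peaks in 16 genes. Of the 17, 6 (35.3%, 17.3 to 58.7%) overlapped a HEPA1-6 peak. This was near the 36.7% of all strandless peaks in genes, while 22.5% of all strandless peaks overlapped one. They included Pax2, which codes for a kidney and eye developmental regulator (734 bp, score 33), Rarb, the gene of a retinoic acid receptor (238 bp, score 20), and Bcl2l1, the gene of an inhibitor of apoptosis (247 bp, score 20). Pdgfd, the gene of a growth factor, held 2 (609 and 283 bp, scores 20 and 15), and Mogat1, the gene of an enzyme of triglyceride synthesis, held 1 (720 bp, score 24). The peaks of Pax2 and Bcl2l1 overlapped HEPA1-6 peaks, strandless at Pax2 and with a strand at Bcl2l1, and those of Rarb, Pdgfd and Mogat1 overlapped none.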
